A study of Mus musculus with 6 samples.

Results

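The genes described here are 47 mouse genes of the interferon system, chosen by name with earlier results of these data known. They are receptor chains, the kinases and factors that carry the signal, sensors of viral RNA, antiviral effectors, the antigen presentation machinery and feedback genes. A probe was taken for a gene where the RefSeq accession printed for it in the scanner files maps to that gene. All 47 were on the array, 46 with a probe usable on every array, and 38 were tested among 25899 features in all. Psmb8 is the exception, since its only probe carried an outlier flag on 1 array. Transcript levels were measured on 6 Agilent 1-colour arrays of total RNA from J1 cells, a mouse embryonic stem cell line of strain 129S4/SvJae. All cells were grown on gelatin with 1000 U/mL of LIF, the cytokine that sustains self-renewal, and 3 arrays came from cells with the solvent DMSO and 3 from cells with 3 µM SB431542, each for 24 h. SB431542 inhibits the type I receptors that carry Nodal, activin and TGF-beta signals. The cells are 1 established line. Whether the replicates came from separate cultures is not stated, so a p-value measures no more than the spread between these arrays, which may be technical.

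Interferons are secreted proteins released on infection. Type I interferons bind the chains Ifnar1 and Ifnar2, and interferon gamma binds Ifngr1 and Ifngr2. The kinases Jak1, Jak2 and Tyk2 then phosphorylate STAT proteins, which with Irf9 act on the interferon-stimulated response element (ISRE), or alone on the gamma-activated site (GAS), to raise antiviral and antigen presentation genes. Pluripotent stem cells are known for a weak interferon response and for low class I presentation, so the levels here are those of cells without a stated interferon stimulus.

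Each level below is a log2 signal relative to the 75th percentile of its array, so 0 is the level of that percentile and a difference of 1 is 2-fold. A gene "rose" or "fell" where limma's test gave an adjusted p under 0.05 over all 25899 features. Inhibition was visible in the arrays: the Nodal targets Lefty1, Lefty2 and Smad7 fell by 9.43, 4.85 and 4.59 on the log2 scale. All 8 markers of pluripotent stem cells, Pou5f1, Sox2 and Nanog among them, were well above background on every array. Of the 8, 2 fell and 0 rose: Tdgf1, the Nodal co-receptor gene, changed by -1.04 ± 0.08 and Dppa5a by -0.49 ± 0.07. In this fit 3 of the 8 were at an unadjusted p under 0.05, and without SB431542 replicate 2 Pou5f1 was called lower as well. The summed linear level of the 8 ran from 563 to 590 in DMSO and from 420 to 467 in SB431542. SB431542 replicate 3 was the only array on slide 2, with a scan of its own, so slide and scan give the same block as leaving that array out. By the array barcodes, all DMSO arrays lay in row 1 of slide 1 and SB431542 replicates 1 and 2 in row 2. Row and treatment cannot be told apart on that slide. Markers of other cells were read as well. Of 9 fibroblast markers, which would mark a feeder layer, Postn, Lum and Fap were at background throughout, 3 of 6 tested fell (Col1a2, Pdgfrb and Dcn, the last kept in the test only through its DMSO arrays, with 1 called without any single DMSO array, 2 without any single SB431542 array) and 0 rose, and their summed linear level ran from 2.36 to 2.52 in DMSO and from 1.89 to 2.09 in SB431542. Of 10 blood and immune markers on the array 6 were tested and 0 passed limma's test (3 at an unadjusted p under 0.05, and 1 called lower without SB431542 replicate 3), and their summed level ran from 20.8 to 21.2 in DMSO and from 20.02 to 20.4 in SB431542. Of 4 endothelium markers 2 were tested and 0 passed, with Kdr called higher without SB431542 replicate 1. Their summed level ran from 10.4 to 11.4 in DMSO and from 11.5 to 14.5 in SB431542. The part of such cells in the results was not tested, and in bulk RNA fewer cells of a type and less RNA per cell cannot be told apart.

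Of the 47 genes, 38 were tested, 4 rose and 13 fell. That is 44.7% of the genes tested, where 12.6% of all features changed. The list was chosen with earlier results of these data known, so this share and those below describe it and are no test. Among all features 5.19% rose and 7.38% fell. Without DMSO replicate 3, 11 of the genes changed, 2 of them upward, and without SB431542 replicate 3, 6 rose and 10 fell. The median log2 difference (SB431542 minus DMSO) was -0.05 over the tested genes and 0.02 over all features. The arrays of the groups did not overlap for 25 of the 38 genes (65.8%), against 36.0% of all features. A difference of at least 2-fold was seen for 3 genes that fell, Rtp4, Oasl2 and Tap2, and for 0 that rose, while 1.56% of all features changed that far, 1.21% downward and 0.355% upward. One of them, Rtp4, passed the filter on dim probes only through the DMSO arrays and so had to differ. A gene that missed the threshold is not shown to be equal between the groups.

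**Figure D1:**
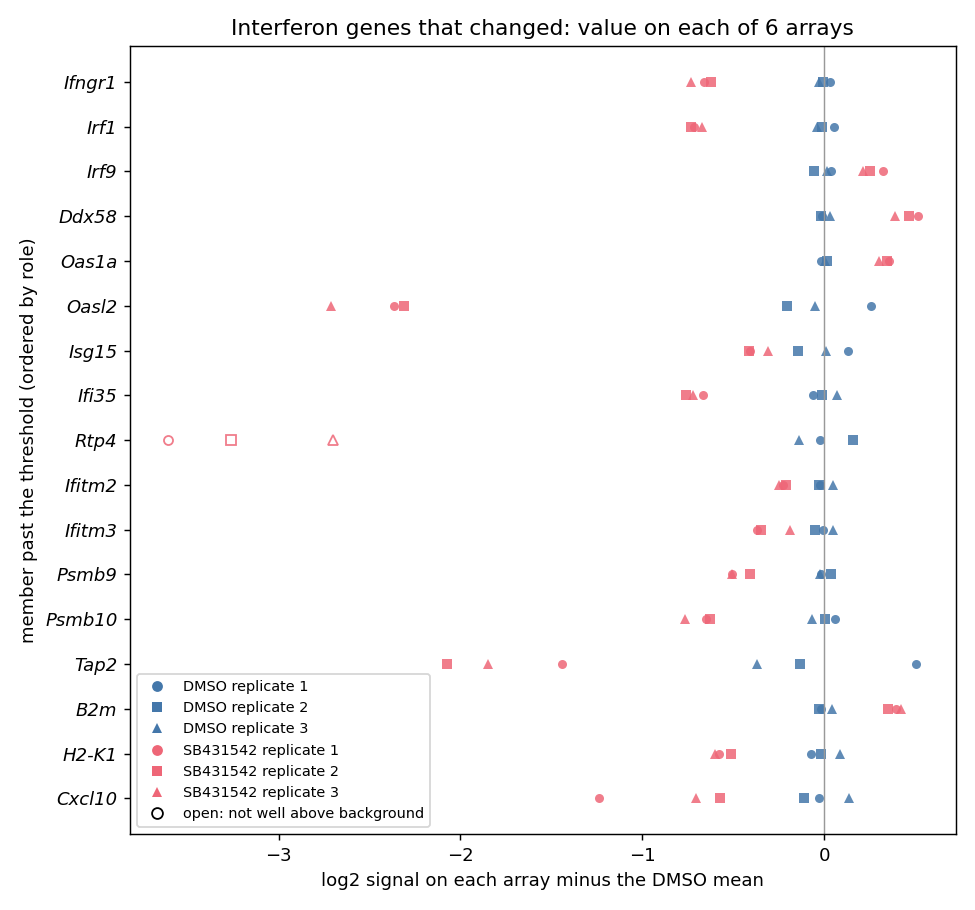
The log2 signal of each of the 17 genes past the threshold on each array, minus the mean of the 3 DMSO arrays (x axis), with genes in rows ordered by role. Blue marks are DMSO and red marks SB431542, shapes are replicates, and open red marks are not well above background. In every row the 3 red marks lie apart from the 3 blue ones, and the open marks of Rtp4 have no reliable distance from its DMSO arrays.

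Promoter sequence was available from RefSeq (GRCm38.p6) for 43 of the 47 genes, all but Rtp4, Dhx58, Tap2 and Usp18. Each window runs from 250 bases before to 50 bases after the start of transcription. The letters of the ISRE, GAAA and again GAAA after any 2 bases, on either strand, stood in 16 of 43 genes (37.2%), against 3.99% of all 27025 genes with such a window. Those of the GAS, TTCNNNGAA, which reads the same on both strands, stood in 13 of 43 (30.2%), against 9.55%. The Smad box repeat GTCTAGAC stood in 0 of 43, against 0.248%. The list was chosen for its link to interferon, so this share describes the list and not the response to the inhibitor. By response, 7 of 15 changed genes with a window held the ISRE letters, against 4 of 20 that did not pass and 5 of 8 not tested. By direction, the ISRE letters stood in 3 of 4 genes that rose and in 4 of 11 that fell. Those 4 were Isg15, Cxcl10, Ifitm2 and Ifitm3, whose calls were each lost in some fits that left out a single array. Of the 3 that rose, B2m and Ddx58 kept their calls in all such fits and Oas1a did not. The counts by response therefore rest in part on calls that are not stable. The GAS letters stood in 4 of 15 changed genes, 7 of 20 that did not pass and 2 of 8 not tested. A match is a run of letters and not a shown binding site.

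The stretches before the start sites of 5 genes are shown as examples with and without these letters, for genes that rose and genes that fell. They are given 5′ to 3′ on the strand of the gene, with matches to either motif in capitals. Isg15 (chr4:156200819-156200968, minus strand) fell and has 3 overlapping ISRE matches that begin 78, 72 and 66 bases before the start. Oas1a (chr5:120907526-120907675, minus strand) rose and has 2 overlapping ISRE matches and a GAS match. B2m (chr2:122147537-122147686, plus strand) rose with 1 ISRE match. Irf1 (chr11:53769864-53770013, plus strand) fell and has a GAS match 90 bases before the start. Oasl2 (chr5:114896784-114896933, plus strand), with the largest fall among genes measured on every array, has neither run of letters in its window.
Isg15: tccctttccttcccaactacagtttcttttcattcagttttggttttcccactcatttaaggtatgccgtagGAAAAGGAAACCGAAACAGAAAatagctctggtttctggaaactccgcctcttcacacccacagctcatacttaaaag
Oas1a: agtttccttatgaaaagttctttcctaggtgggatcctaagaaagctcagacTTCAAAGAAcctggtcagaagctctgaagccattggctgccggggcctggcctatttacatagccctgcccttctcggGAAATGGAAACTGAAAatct
B2m: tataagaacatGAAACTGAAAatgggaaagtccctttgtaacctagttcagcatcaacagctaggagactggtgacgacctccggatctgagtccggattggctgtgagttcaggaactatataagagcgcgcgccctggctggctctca
Irf1: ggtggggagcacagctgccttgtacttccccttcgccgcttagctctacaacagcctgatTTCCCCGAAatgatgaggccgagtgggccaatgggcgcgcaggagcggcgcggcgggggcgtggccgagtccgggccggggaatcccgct
Oasl2: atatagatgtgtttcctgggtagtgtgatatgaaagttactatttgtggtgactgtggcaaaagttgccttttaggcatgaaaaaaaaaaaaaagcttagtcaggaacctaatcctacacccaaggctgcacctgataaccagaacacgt
The exact letters GAAACTGAAA stood in 6 genes: B2m and Oas1a, which rose, Bst2 and Stat2, which did not pass, and Ifit1 and Ifit3, which were not above background.

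Of the 4 receptor chains, only Ifngr1 fell, and 0 rose. Ifngr1, the ligand-binding chain of the interferon gamma receptor, stood at 1.00, 0.96 and 0.94 on the DMSO arrays and at 0.31, 0.34 and 0.23 on the SB431542 arrays. The groups did not overlap, and the log2 difference was -0.67 ± 0.05 (SE, 3 arrays per group, limma adjusted p = 0.00151), a 1.59-fold lower signal. Its partner chain Ifngr2 was at 0.09, 0.26 and 0.21 in DMSO and at 0.22, 0.29 and 0.22 in SB431542, with overlapping arrays and a difference of 0.06 ± 0.06. The type I chain Ifnar2 was at 1.79, 1.75 and 1.68 in DMSO and at 1.63, 1.61 and 1.55 in SB431542. Every SB431542 array was lower for Ifnar2, by -0.14 ± 0.06 on average, which missed the threshold (limma adjusted p = 0.166). For Ifnar1 the brightest of 3 probes was at 0.95, 0.83 and 0.77 in DMSO and at 0.73, 0.72 and 0.74 in SB431542 (-0.12 ± 0.06). Its other 2 probes differed the other way, by 0.29 ± 0.11 and 0.12 ± 0.11, and none of the 3 passed, so the sign for Ifnar1 depends on the probe. The 2 chains of the interferon gamma receptor differed in their change by -0.73 within arrays (exact permutation test, two-sided, p = 0.1, the smallest that 3 arrays against 3 allow). This pair was chosen after its values were seen, as were the pairs compared this way below, so the test supports no difference.

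None of the kinases or Stat2 passed limma's test, with 0 of 4 also at an unadjusted p under 0.05. Jak1, which serves both receptors, was at 2.00, 1.85 and 2.03 in DMSO and at 2.05, 2.17 and 2.01 in SB431542 (0.11 ± 0.07). Jak2, which pairs with the interferon gamma receptor, was at -0.18, -0.34 and -0.21 and at -0.09, -0.08 and -0.13 (0.14 ± 0.06). The mean differences of the 4 ran from 0.11 to 0.17 on the log2 scale. Tyk2, which pairs with the type I receptor, was at -0.26, -0.46 and -0.34 in DMSO and at -0.34, 0.05 and -0.32 in SB431542 (0.15 ± 0.12), where SB431542 replicate 2 alone lay above the DMSO arrays. Stat2, a partner of Irf9, was at 2.12, 2.21 and 1.97 and at 2.22, 2.39 and 2.21 (0.17 ± 0.09).

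Among the interferon regulatory factors, Irf1 fell and Irf9 rose. Irf1, a transcription factor that is itself an interferon gamma target and acts on class I genes, was at 3.19, 3.12 and 3.09 in DMSO and at 2.42, 2.40 and 2.46 in SB431542. The groups lay far apart compared with their spread, with a difference of -0.71 ± 0.05 (limma adjusted p = 0.00123, 1.63-fold lower). Irf9, the DNA-binding subunit of the type I complex, was at 0.77, 0.68 and 0.76 in DMSO and at 1.06, 0.99 and 0.95 in SB431542. Its groups did not overlap and the difference was 0.26 ± 0.06 (limma adjusted p = 0.0362). The call was lost in 5 of the 6 fits that left out an array: leaving out a DMSO array gave an adjusted p of 0.0969 (replicate 1), 0.137 (replicate 2) or 0.116 (replicate 3), and leaving out SB431542 replicate 1 or 2 gave 0.0906 or 0.0868. Irf3, which starts interferon transcription after infection, was among the brighter signals of its array, at 4.40, 4.30 and 4.31 in DMSO and 4.39, 4.35 and 4.21 in SB431542 (-0.02 ± 0.07). Irf2 and Irf7, the latter an amplifier of the type I response, were not tested: Irf2 was at background throughout, and Irf7 was well above it on 2 DMSO arrays and 0 SB431542 arrays.

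Of the RNA sensing genes, Ddx58 rose. It encodes RIG-I, a sensor of viral RNA in the cytosol. Its brightest probe was at 2.75, 2.74 and 2.79 in DMSO and at 3.28, 3.23 and 3.15 in SB431542, a difference of 0.46 ± 0.06 (limma adjusted p = 0.00575, 1.37-fold higher). A further probe, fitted with every probe on its own, rose by 0.65 ± 0.07, so the probes moved the same way. Dhx58, which encodes the related sensor LGP2, was at -2.44, -2.39 and -2.46 in DMSO and at -2.14, -2.13 and -2.32 in SB431542. The groups did not overlap, and its 0.23 ± 0.07 missed the threshold (limma adjusted p = 0.084) but passed without SB431542 replicate 3 (0.0265). Mavs, the mitochondrial adaptor of these sensors, was at 1.94, 1.91 and 1.95 and at 1.92, 1.96 and 1.78 (-0.05 ± 0.06). Neither probe of Ifih1, which encodes the sensor MDA5, was well above background on any array.

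Antiviral effector genes moved apart from each other. Of 15 tested, 1 rose and 6 fell, where 5.19% of all features rose and 7.38% fell. The falls numbered 3 (Ifi35, Oasl2 and Rtp4) without DMSO replicate 1, DMSO replicate 3, SB431542 replicate 1 or SB431542 replicate 2, and 4 without either other array. Each of these counts includes Rtp4, which passed the filter only through the DMSO arrays and so had to differ. Rtp4, an interferon-induced gene first known as a chaperone of membrane receptors, was at -3.51, -3.33 and -3.63 in DMSO and not well above background on any SB431542 array (measured at -7.10, -6.76 and -6.19). Against the lowest signal that counts as above background it was at least 4.80-fold lower in the main fit. That size depends on the processing: over the alternatives the measured difference of Rtp4 ran from -3.44 to -0.66. Oasl2, a relative of the 2′-5′ oligoadenylate synthetases, was at -2.67, -3.14 and -2.98 in DMSO and at -5.30, -5.24 and -5.64 in SB431542, and was well above background on every array. This was a difference of -2.46 ± 0.16 (limma adjusted p = 0.000802), or 5.51-fold. Oasl2 is a dim probe, and its size depends on the background method: under normexp correction the difference was -0.91, still past the threshold. Oasl1, the neighbouring relative of Oasl2, was at -0.81, -0.76 and -1.01 in DMSO and at -0.99, -1.04 and -1.19 in SB431542 (-0.21 ± 0.09, limma adjusted p = 0.198). The changes of Oasl2 and Oasl1, a pair chosen after its values were seen, differed by -2.25 within arrays (exact permutation test, two-sided, p = 0.1, the smallest possible).

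Oas1a, which encodes a 2′-5′ oligoadenylate synthetase that activates RNA decay, rose. It was at 1.20, 1.24 and 1.22 in DMSO and at 1.58, 1.57 and 1.52 in SB431542, a difference of 0.34 ± 0.05 (limma adjusted p = 0.00952, and 0.0509 without DMSO replicate 3). A further Oas1a probe rose by 0.35 ± 0.07. Close copies of Oas1a lie beside it in the genome, so a probe may pick up more than 1 of them. Ifi35, which encodes an interferon-induced leucine zipper protein, was at -0.03, 0.02 and 0.10 in DMSO and at -0.63, -0.73 and -0.69 in SB431542 (-0.71 ± 0.06, limma adjusted p = 0.00169). Isg15, the ubiquitin-like modifier, was at -1.15, -1.42 and -1.27 in DMSO and at -1.69, -1.69 and -1.59 in SB431542. It fell by 0.38 on the log2 scale, with an SE of 0.08 (limma adjusted p = 0.0393). That call was lost where DMSO replicate 1 or 3 was omitted (0.107 or 0.129) and where SB431542 replicate 1, 2 or 3 was (0.0981, 0.106 or 0.0575).

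The Ifitm genes encode small membrane proteins that block virus entry and gave bright signals. Ifitm2 was at 5.09, 5.08 and 5.16 in DMSO and at 4.89, 4.90 and 4.86 in SB431542 (-0.23 ± 0.05, limma adjusted p = 0.0397). Ifitm3, also known as a germ cell marker, was at 4.17, 4.12 and 4.22 and at 3.80, 3.82 and 3.98 (-0.30 ± 0.07, limma adjusted p = 0.0415). Both fell by a small amount with groups that did not overlap, and both calls are fragile. The Ifitm2 call was lost in every fit that left out an array, with an adjusted p of 0.110, 0.120 or 0.147 where DMSO replicate 1, 2 or 3 was omitted and of 0.0925, 0.0864 or 0.0658 where SB431542 replicate 1, 2 or 3 was. For Ifitm3 the same DMSO omissions gave 0.127, 0.107 and 0.144, and omitting SB431542 replicate 1 or 2 gave 0.102 or 0.111. Ifitm1, which shares their cluster, was at 3.44, 3.44 and 3.57 in DMSO and at 3.56, 3.63 and 3.67 in SB431542 (0.14 ± 0.06) and did not pass.

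The other effectors tested did not pass. Trim25, the ligase that activates RIG-I, was bright at 5.41 to 5.46 in DMSO and 5.45 to 5.64 in SB431542, and Bst2, which tethers virus particles to the cell, ran from 4.10 to 4.29 and from 4.04 to 4.33. The kinase gene Eif2ak2 (PKR) changed by 0.16 ± 0.05 with no overlap and a limma adjusted p of 0.0881. Adar, an RNA editing enzyme, was at 1.80, 1.87 and 1.80 in DMSO and at 2.11, 2.12 and 1.99 in SB431542 for its brightest probe (0.25 ± 0.06). Its limma adjusted p was 0.0503, and 0.0321 without SB431542 replicate 3, while a further probe changed by -0.06 ± 0.06. For the exonuclease gene Isg20 the 2 probes differed by 0.09 ± 0.07 and -0.39 ± 0.10, and neither passed. The low signal of Ifit2 changed by -0.14 ± 0.17. Classical markers of an interferon response, Ifit1, Ifit3, Rsad2 and Ifi44, gave no signal well above background in either group.

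**Figure D2:**
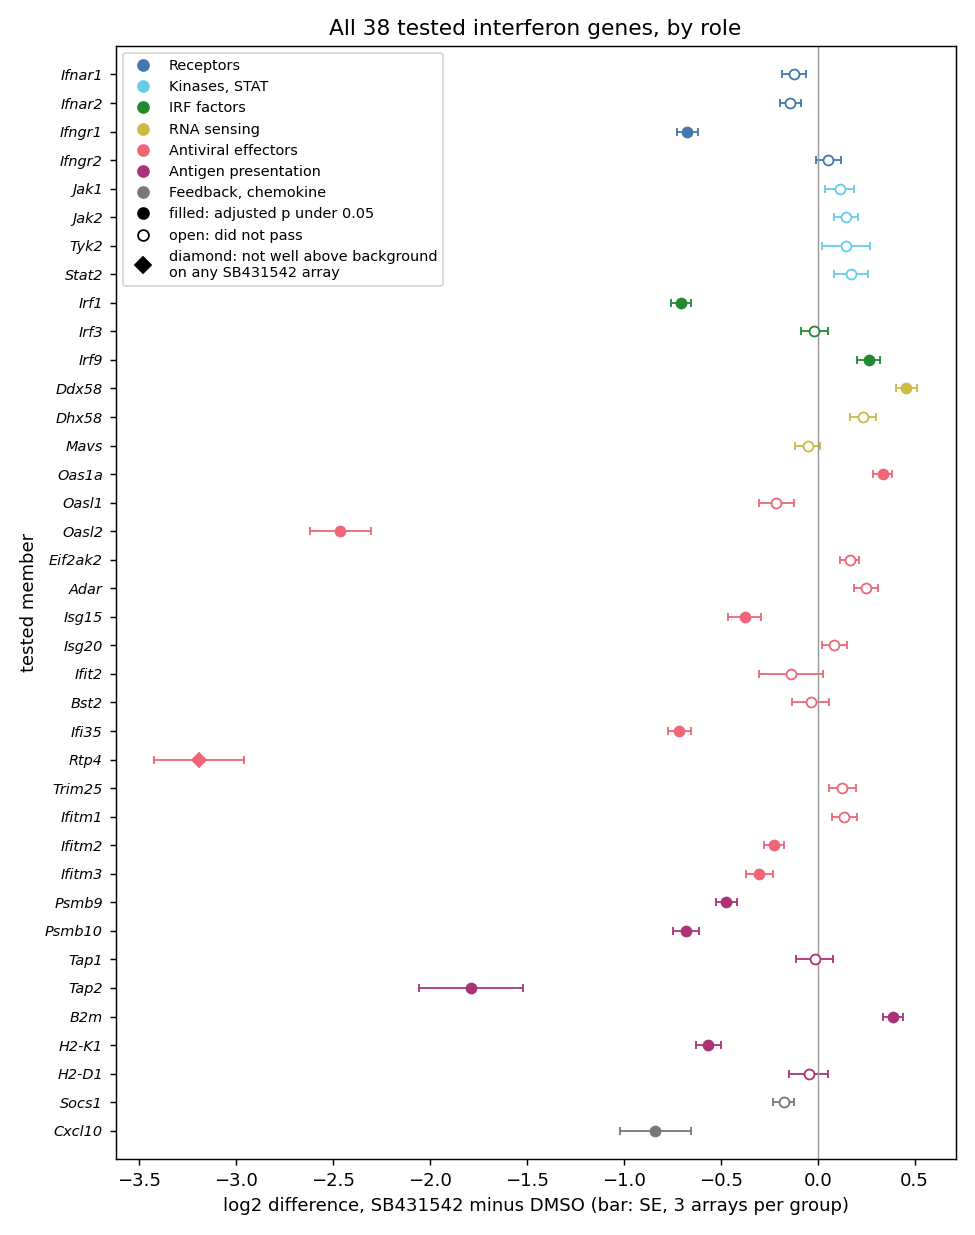
The log2 difference between SB431542 and DMSO (x axis, dot, with its SE as a bar, 3 arrays per group) for the 38 tested genes, coloured by role. Filled marks passed the threshold and open marks did not. The diamond marks Rtp4, drawn at its measured difference although its SB431542 signals were not well above background and only a bound can be given. The 4 rises reach at most 0.46, while the falls of genes measured on every array reach from -0.23 to -2.46.

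Most tested antigen presentation genes fell, and B2m rose. Of 7 tested, 4 fell, with the same 4 falling when any single array was left out, where 7.38% of all features fell. Tap2, which with Tap1 carries peptides into the endoplasmic reticulum, was at -0.81, -1.45 and -1.69 in DMSO and at -2.76, -3.40 and -3.17 in SB431542. Its DMSO arrays were spread widely but did not reach the SB431542 arrays, and the difference was -1.79 ± 0.27 (limma adjusted p = 0.0109, 3.46-fold lower). Over the alternatives the difference of Tap2 ran from -1.97 to -1.19. The immunoproteasome subunit gene Psmb10 was bright, at 4.78, 4.73 and 4.65 in DMSO and at 4.07, 4.10 and 3.96 in SB431542 (-0.68 ± 0.06, limma adjusted p = 0.0027). Psmb9, another immunoproteasome subunit gene, was at 0.09, 0.15 and 0.09 and at -0.39, -0.30 and -0.39 (-0.47 ± 0.06, limma adjusted p = 0.00494). The class I heavy chain gene H2-K1 was at 2.61, 2.66 and 2.77 in DMSO and at 2.10, 2.17 and 2.08 in SB431542 (-0.56 ± 0.06, limma adjusted p = 0.00446), and a further probe fell by 0.51 on the log2 scale.

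B2m, the light chain that every class I molecule needs, went the other way, from 1.34, 1.33 and 1.40 in DMSO to 1.75, 1.70 and 1.78 in SB431542 (0.39 ± 0.05, limma adjusted p = 0.00756). H2-D1, a heavy chain gene like H2-K1, was at 0.51, 0.70 and 0.80 in DMSO and at 0.51, 0.59 and 0.76 in SB431542, with full overlap (-0.05 ± 0.10). The class I genes are similar in sequence, so their probes may share signal. The changes of H2-K1 and H2-D1, a pair chosen after its values were seen, differed by -0.52 within arrays (exact permutation test, two-sided, p = 0.1, the smallest possible). Psmb8, the third immunoproteasome gene of the list, was not tested, because its spot carried an outlier flag on SB431542 replicate 2. On the other arrays it stood at -1.85, -1.84 and -1.78 in DMSO and at -3.52 and -6.20 in SB431542 replicates 1 and 3, a spread between those 2 arrays that the DMSO arrays do not show. The value of -6.20 lies under the lowest signal well above background on that array (-5.70), so the size of this spread is not reliable.

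Psmb9 and Tap1 lie side by side on chromosome 17 and are read away from each other, and the 225 bases between their start sites (GRCm38.p6, chr17:34187331-34187555, plus strand, the direction of Tap1) are all that separates them. This stretch, shown because it lies between a gene that fell and a gene that did not pass, holds neither the ISRE nor the GAS letters, so none is in capitals.
Psmb9 and Tap1: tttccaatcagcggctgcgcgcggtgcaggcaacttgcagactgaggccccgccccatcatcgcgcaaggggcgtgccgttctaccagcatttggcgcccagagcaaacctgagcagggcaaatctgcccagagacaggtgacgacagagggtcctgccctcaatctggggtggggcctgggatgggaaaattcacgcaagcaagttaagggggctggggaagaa
Psmb9 fell, as given above, while Tap1 was at -4.71, -4.59 and -4.63 in DMSO and at -4.72, -4.79 and -4.48 in SB431542 (-0.02 ± 0.09). The Tap1 probe was dim though above background on every array. The changes of Psmb9 and Tap1 differed by -0.46 within arrays (exact permutation test, two-sided, p = 0.1, the smallest possible, and 0.1 adjusted over the 4 pairs of genes compared this way). This pair too was chosen after its values were seen.

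Other genes of antigen presentation showed falls and 0 rises. Of 14 tested, 6 fell, where 7.38% of all features did. The falls numbered 4 without any single DMSO array and 5 without any single SB431542 array, with Erap1 among them each time. The class I-like gene H2-M3 changed by -0.53 ± 0.05 (limma adjusted p = 0.00268) and Tapbp, which encodes tapasin of the peptide loading complex, by -0.67 ± 0.07. Erap1, a peptidase that trims peptides for class I, was not well above background on any SB431542 array and was at least 1.63-fold lower. It passed the filter only through the DMSO arrays and so had to differ, which leaves 5 falls among the genes measured in both groups. Nlrc5, the transactivator of class I genes, changed by -0.85 ± 0.12 (limma adjusted p = 0.00901) and is named after its value was seen. Under normexp correction 5 genes of this list fell, and neither Nlrc5 nor Erap1 was among them. The chaperone genes Calr (0.08 ± 0.10) and Canx (-0.02 ± 0.08) did not pass. On the same arrays 3 of 6 tested fibroblast markers fell, and their part in these values was not tested.

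**Figure D3:**
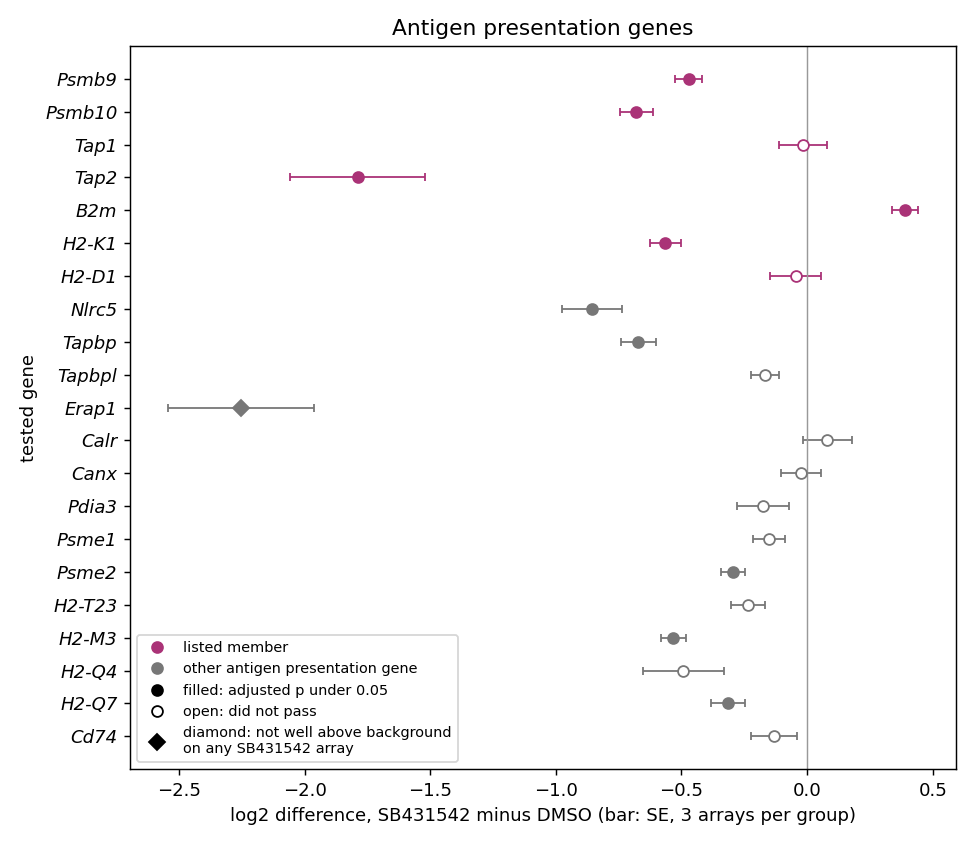
The log2 difference between SB431542 and DMSO (x axis, with its SE as a bar, 3 arrays per group) for 7 listed antigen presentation genes (purple) and 14 others (grey). Filled marks passed the threshold and open marks did not. The diamond is Erap1, drawn at its measured difference although its SB431542 signals were not well above background. All filled marks but that of B2m lie to the left of 0.

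Of the feedback and chemokine genes, Cxcl10 fell. This chemokine gene, a common readout of interferon, was at -3.20, -3.29 and -3.04 in DMSO and at -4.41, -3.75 and -3.88 in SB431542, with replicate 1 the lowest. The difference was -0.84 ± 0.18 (limma adjusted p = 0.0363), and it missed the threshold where DMSO replicate 1, 2 or 3 was omitted (0.109, 0.0964 or 0.122), as it did where SB431542 replicate 3 was (0.0648). Under normexp it was -0.27 (limma adjusted p = 0.0636). Socs1, which blocks the JAK kinases, was lower on every SB431542 array, at 0.18, 0.08 and 0.05 in DMSO and -0.06, -0.09 and -0.08 in SB431542, and missed the threshold (-0.18 ± 0.06, limma adjusted p = 0.105). Usp18, the protease that removes Isg15, was well above background on 1 SB431542 array and was not tested.

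The ligand genes gave little signal. Of 21 interferon genes, 16 were on the array. Ifnb1 and Ifng were among 5 at background throughout, and of 11 tested 0 passed limma's test. The 1 gene at an unadjusted p under 0.05, Ifnk, changed by 1.00 ± 0.28 with groups that did not overlap. It was called higher without SB431542 replicate 3, which is also the fit with slide as a block. Ifnk was dim, at -5.69, -5.60 and -5.60 in DMSO and at -4.90, -5.01 and -3.97 in SB431542. It was well above background on 2 DMSO arrays and 3 SB431542 arrays, so the size of its change is uncertain. The brightest probes of the 16 ligand genes summed to a linear level of 1.08 to 1.22 in DMSO and 1.11 to 1.53 in SB431542, where 1 is the 75th percentile of single probes on the array. The Ifna genes are also close copies of each other, with the same limit on their probes. Genes that induce interferon moved in both directions. Of 14 tested, 4 rose and 3 fell, where 5.19% of all features rose and 7.38% fell. Sting1, the adaptor of DNA sensing, rose by 0.69 ± 0.07 (limma adjusted p = 0.00354) and Ticam1, an adaptor of Toll-like receptors, by 0.36 ± 0.06, while Zbp1, a nucleic acid sensor, changed by -1.47 ± 0.10. With single arrays left out, 1 rose without DMSO replicate 1, 2 or 3 or SB431542 replicate 1, and 2 without SB431542 replicate 2. There 1 fell without DMSO replicate 1 or 2 or SB431542 replicate 3, and 2 without DMSO replicate 3 or SB431542 replicate 1. Sting1 and Zbp1 were called in each of those fits.

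Of 35 other interferon response genes tested, 5 rose and 4 fell, with a median log2 difference of 0.04. Beside this and the next list, 5.19% of all features rose and 7.38% fell. The falls included Parp10, an ADP-ribosyltransferase gene (-1.20 ± 0.07, limma adjusted p = 0.000593) and Nmi (-0.81 ± 0.08), whose protein partners that of Ifi35, and the rises included the torsin family gene Tor3a (0.80 ± 0.07). The rises numbered 2 without DMSO replicate 1 or 3, 3 without DMSO replicate 2 or SB431542 replicate 1 or 2, and 3 to 4 genes fell in the fits without 1 array. Of 18 negative regulators 3 rose (1 without any single DMSO array, 2 without SB431542 replicate 1 or 2) and 1 fell, with the phosphatase gene Ptpn6 higher by 0.45 ± 0.05, Socs2 by 0.29 ± 0.05 and the SUMO ligase gene Pias2 at -0.44 ± 0.06.

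Where a gene had more than 1 tested probe, the probes could be set against each other. Of 45 probes of these genes tested with every probe on its own, 18 changed, where 10.8% of 36184 probes did. The probes of Ddx58, Oas1a and H2-K1 moved alike, and those of Adar, Ifnar1 and Isg20 differed in sign with no probe past the threshold.

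**Figure D4:**
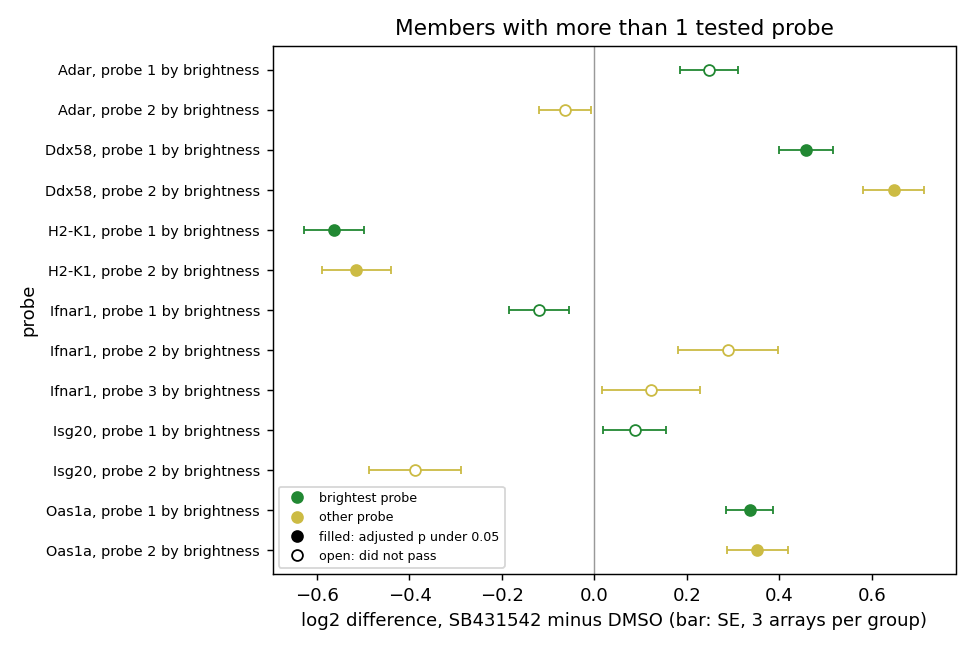
The log2 difference between SB431542 and DMSO (x axis, with its SE as a bar, 3 arrays per group) for each tested probe of the 6 genes with more than 1, fitted with every probe on its own. Green is the brightest probe of a gene and yellow the others, and filled marks passed the threshold. The marks of a gene lie on the same side of 0 for Ddx58, H2-K1 and Oas1a and on both sides for Adar, Ifnar1 and Isg20.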

How the data were processed

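The deposited intensity values per spot were background-subtracted and detrended within each array by Agilent Feature Extraction, per the file headers (version 10.7 in the submitters' processing notes), and not normalized between arrays. Flags for background, outliers and saturation are a score of 0 or 1 per spot, per the file headers. The authors also deposited a log2 table of the same arrays. Its making is not described in the labels, its columns share a median of 5.18, and it served as an alternative. Saturated spots numbered 0, the share of spots well above background ran from 63.9% to 66.2%, and the number of arrays limits the precision.

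Outlier spots were left out, spots of a probe averaged, and the log2 signal taken minus each array's 75th percentile, which ran from 453 to 565. A probe was kept where at least 3 of the 6 arrays had it well above background. Accessions were matched without version to RefSeq genes of GRCm38.p6 (27235 of 55681 probes, and 13 by a symbol in the file). The array grid uses mm9, so coordinates belong to the RefSeq promoters only. The brightest probe stood for a gene. Differences (SB431542 minus DMSO) were tested with limma 3.58.1 (lmFit, eBayes) in R 4.3.3, two-sided, with Benjamini-Hochberg adjustment. Errors are standard errors of that fit. The fit, and not the steps before it, was also tried on simulated log2 values. "At least N-fold" sets the bright group against the higher of each dim value and the lowest signal well above background on that array.

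The 47 genes and the other lists were chosen with earlier results of these data known. All genes past the threshold were named, with receptors, kinases, Stat2, Irf3, Irf9, Mavs, Isg15 and 3 class I genes whether or not they passed, and the 3 smallest adjusted p-values of each other list. Nlrc5, Calr, Canx, Ifnk, Tdgf1 and Dppa5a, and the 4 gene pairs compared within arrays, were chosen after their values were seen. Normexp used the median spot signal, since the files hold no mean signal.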

Additional observations from a re-analysis of the deposited data

How the results depend on the processing

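The alternatives were planned, except the counts of the other lists, which were added after seeing the data. Of the 17 changed genes, 10 kept their call under every alternative that gave them a value (Rtp4, which had to differ, among them), 11 under every fit without a single array, and 7 lost it somewhere. Adar and Dhx58 gained a call in some. The changed genes numbered 11 (8 lower) at an adjusted p under 0.01 and 11 (2 higher) with the replicate number as a block. Over all features the deviations of same-numbered arrays from their group means had correlations of 0.00172, 0.0716 and -0.058. With 3 arrays per group these values cannot show whether same-numbered arrays are pairs, which is not stated. Leaving out single arrays gave 11 to 16 changed genes, 2 to 6 higher, 9 to 10 lower, 10 to 18 changed probes, and 1467 to 2910 changed features against 3257. The fewest genes (11) came without DMSO replicate 3 and the fewest probes (10) and features without DMSO replicate 2. With slide as a block, the fit without SB431542 replicate 3, 16 genes changed (6 higher, 10 lower), 14 of them shared with the 17. Over all features 2098 changed when dim probes were kept, a larger number of tests, 1222 at an adjusted p under 0.01 and 1567 with the replicate block. Changed probes numbered 10 at that stricter threshold and 11 with the replicate block. Averaging the probes of each gene turned the sign for Ifnar1 (0.10) and Isg20 (-0.15), whose probes differ in sign. Tests of dim genes are limited by signal over background.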
